A study of Mus musculus with 9 samples.

Results

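The subject of this account is the set of DNA replication genes in mouse tumours, 44 genes chosen by symbol with earlier results of these data known. The tumours were grown from B16-F10, a line of mouse melanoma cells. All 44 were found among the 54532 gene entries of the 9 count files, and all 44 passed the filter on low counts that 14193 genes passed. The study asked how these tumours change when the cells carry a short hairpin RNA (shRNA), a transcript processed to silence a target, against Fbxo38, an F-box protein that selects substrates for an SCF ubiquitin ligase. Cells were injected under the skin of C57BL/6 mice, the tumours were taken on day 16, and RNA of whole tumour tissue was sequenced. The groups were shFBXO38#1 (hairpin 1), shFBXO38#2 (hairpin 2) and a control shRNA, each with 3 libraries. The labels give no further treatment and neither the age nor the sex of the mice. The vector, any selection of the cells and whether each library is 1 tumour are not given either. No label states that each library is a separate animal, and the p-values then cover only how far these libraries differ, which may be technical.

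DNA replication starts when the origin recognition complex, CDC6 and CDT1 load the MCM2-7 ring onto DNA. In S phase, CDC45 and the GINS complex turn this ring into the active helicase, and polymerases alpha, delta and epsilon copy the strands with the sliding clamp PCNA. Many of the genes are transcribed late in G1 by E2F factors, so their RNA is high in proliferating tissue such as a growing melanoma and low in resting cells.

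The letters that E2F factors bind are a known feature of promoters of replication genes, so the promoter windows of 5 members are shown here. They were the 5 members with these letters that had the smallest p in the comparison of hairpin 2 with control. Each runs from 250 bases before to 50 bases after the annotated start, 5′ to 3′ on the gene's strand, from RefSeq GRCm38.p6. Capitals mark, on either strand, the E2F-type letters (TTCGCGC or TTGGCGC, and also TTCCCGC), and overlapping matches run together.
Rfc3 promoter window, chr5:151651159-151651458, minus strand: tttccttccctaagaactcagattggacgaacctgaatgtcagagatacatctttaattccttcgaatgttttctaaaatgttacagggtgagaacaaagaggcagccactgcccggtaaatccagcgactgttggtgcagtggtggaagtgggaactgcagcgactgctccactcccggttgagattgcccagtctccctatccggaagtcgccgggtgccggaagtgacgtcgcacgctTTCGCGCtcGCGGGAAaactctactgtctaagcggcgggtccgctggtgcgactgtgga
Mcm5 promoter window, chr8:75109259-75109558, plus strand: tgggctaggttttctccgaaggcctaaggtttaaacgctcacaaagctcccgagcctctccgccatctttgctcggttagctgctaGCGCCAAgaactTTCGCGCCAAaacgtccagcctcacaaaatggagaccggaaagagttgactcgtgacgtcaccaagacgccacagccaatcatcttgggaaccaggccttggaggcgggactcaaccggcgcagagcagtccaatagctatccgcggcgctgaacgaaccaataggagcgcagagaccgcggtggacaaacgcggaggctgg
Mcm7 promoter window, chr5:138171834-138172133, minus strand: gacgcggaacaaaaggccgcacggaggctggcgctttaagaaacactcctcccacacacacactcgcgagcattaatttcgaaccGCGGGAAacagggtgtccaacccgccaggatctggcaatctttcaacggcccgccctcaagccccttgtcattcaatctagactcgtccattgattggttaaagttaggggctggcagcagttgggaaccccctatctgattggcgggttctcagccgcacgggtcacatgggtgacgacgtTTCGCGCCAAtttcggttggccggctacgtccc
Rpa2 promoter window, chr4:132768110-132768409, plus strand: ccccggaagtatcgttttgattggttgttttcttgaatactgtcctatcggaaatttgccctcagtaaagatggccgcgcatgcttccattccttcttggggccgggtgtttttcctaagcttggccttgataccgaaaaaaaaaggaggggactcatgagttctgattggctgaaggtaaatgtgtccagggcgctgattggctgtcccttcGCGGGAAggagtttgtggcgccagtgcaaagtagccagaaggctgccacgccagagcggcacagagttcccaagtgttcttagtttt
Mcm3 promoter window, chr1:20820263-20820562, minus strand: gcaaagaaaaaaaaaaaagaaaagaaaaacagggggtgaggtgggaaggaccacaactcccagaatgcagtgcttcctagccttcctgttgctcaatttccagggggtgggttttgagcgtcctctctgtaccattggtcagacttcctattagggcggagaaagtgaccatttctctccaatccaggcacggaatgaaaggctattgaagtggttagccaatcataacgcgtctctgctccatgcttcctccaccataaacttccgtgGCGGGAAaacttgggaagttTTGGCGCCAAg

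RefSeq windows were matched for 36 of the 44 members by symbol, in 41 windows. Mcm4, Gins1, Gins2, Gins4, Prim2, Pole, Rfc2 and Ccne2 were not matched. The E2F-type letters were in 23 of the 41 windows (56.1%), against 8.07% of all 32851 windows and 14.0% of the windows of tested genes. The letters CCAAT, on either strand, were in 53.7% of member windows and in 37.4% of all windows. In the printed windows the matches begin at -9 and 1 for Rfc3, at -164, -152 and -149 for Mcm5, and at -165, 18 and 21 for Mcm7. Those of Rpa2 and Mcm3 begin at -37 and at 20, 40 and 43. Positions count bases from the start.

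With the scaling used here, the replication genes were, on average, at a lower level in each of the 6 hairpin libraries than in each control library. The mean log2 CPM of the 44 genes (CPM, counts scaled to a common library size) was 5.97, 6.11 and 6.09 in the libraries labelled hairpin 1. With hairpin 2 it was 6.17, 6.04 and 5.94, and in control it was 6.26, 6.20 and 6.29. The values of hairpin 2 replicate 1 and control replicate 2, 6.17 and 6.20, lie close together. The scaling factors (TMM) of these libraries were 1.041 and 0.9928, so their order depends on the scaling. The group means were 6.05 ± 0.07 (hairpin 1), 6.05 ± 0.12 (hairpin 2) and 6.25 ± 0.04 (control; SD, n = 3 each). Summed, the 44 genes had 4418 to 5070 CPM in the hairpin 1 libraries, 4538 to 5129 CPM in the hairpin 2 libraries and 5377 to 5642 CPM in control. No single gene of the 44 was past an adjusted p of 0.05 in edgeR, the test used here, in any of 4 comparisons. In these bulk samples, fewer cells of a type and less RNA per cell cannot be told apart.

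**Figure D1:**
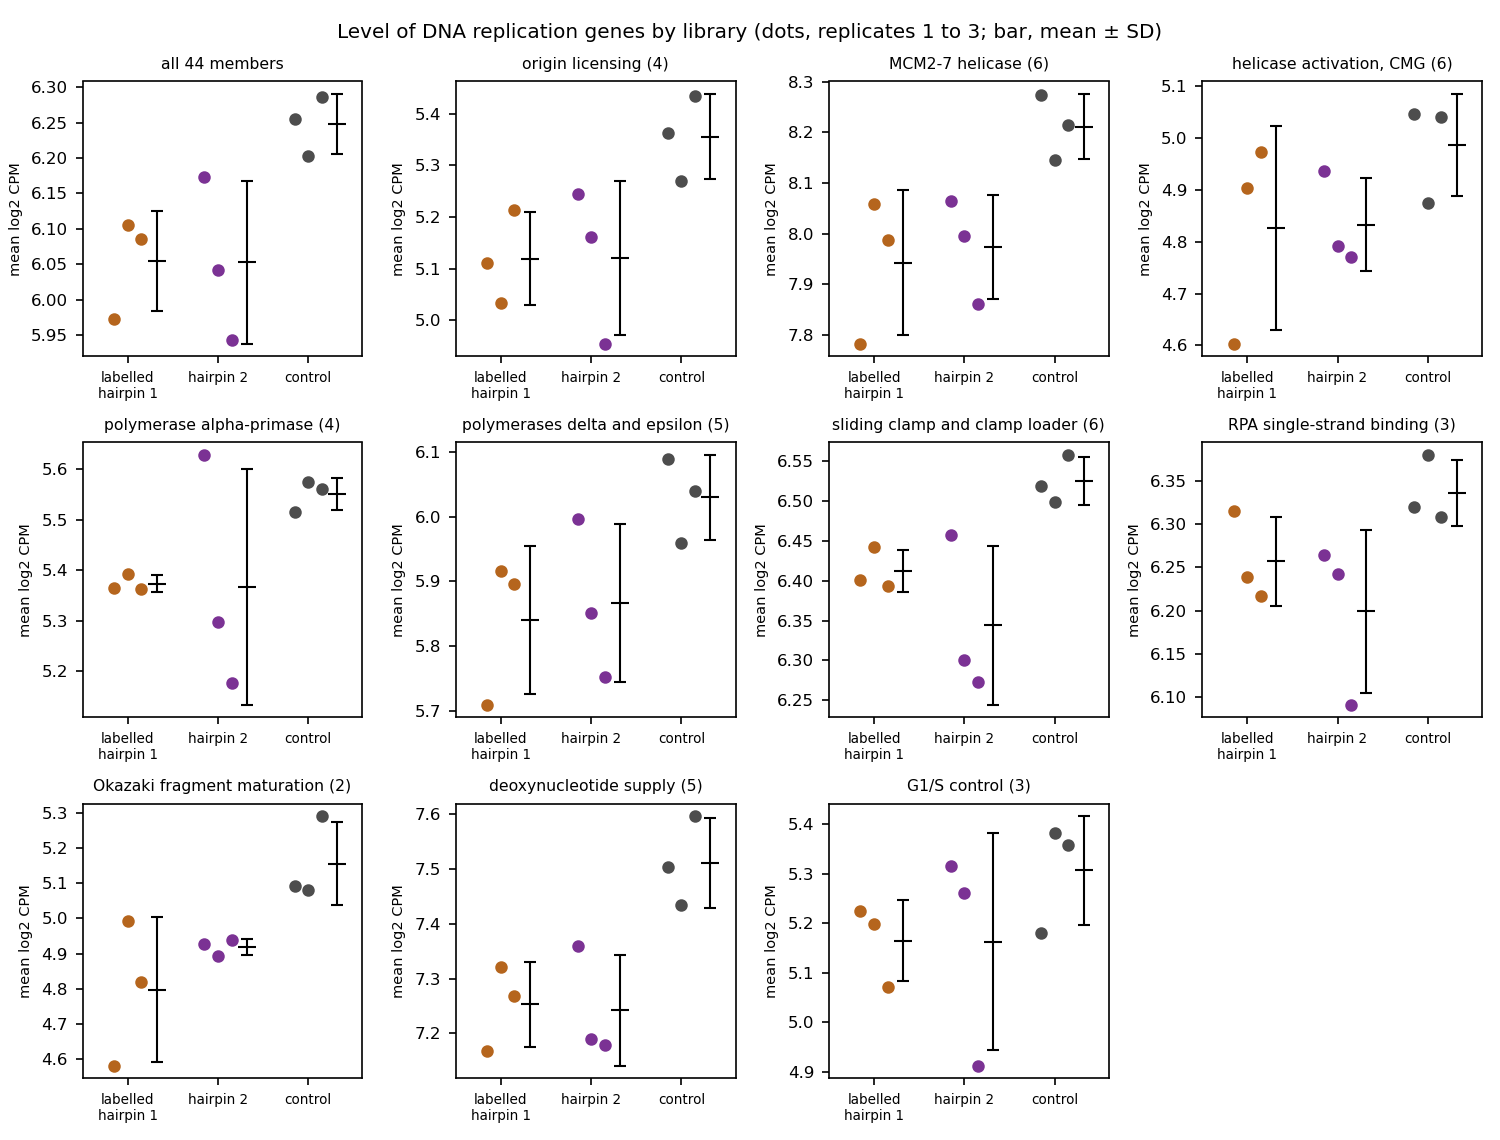
Mean log2 CPM of the replication genes by role (vertical axes) in each library labelled hairpin 1, with hairpin 2 and in control; dots are libraries and bars the mean ± SD of 3 libraries. For all 44 genes, with the scaling used here, the 6 hairpin libraries (5.94 to 6.17) sit below the 3 control libraries (6.20 to 6.29).

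Fbxo38 itself had 35.1, 20.96 and 22.01 CPM in the libraries labelled hairpin 1, 20.9, 11.4 and 11.9 CPM with hairpin 2, and 21.6, 31.3 and 30.7 CPM in control. Its log2 fold change was -0.10 in the libraries labelled hairpin 1 (SE 0.28) and -0.92 with hairpin 2 (SE 0.29, adjusted p = 0.254). An exact two-sided permutation test gave p = 0.9 for hairpin 1 and p = 0.1 for hairpin 2, the smallest value that 3 against 3 libraries allow. The targeted transcript was thus not detectably lower in the libraries labelled hairpin 1. Library totals ran between 15322163 and 17342554 counts, and the lowest count of any replication gene in a library was 69. A hairpin 1 library (replicate 1) and a hairpin 2 library (replicate 2) stood farthest apart on the leading principal component of all tested genes, at 60.6 and -54.8. The other 7 libraries lay between -21.5 and 30.7.

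Melanocyte markers summed to 26890 to 33180 CPM in the hairpin 1 libraries, 24140 to 34160 CPM with hairpin 2 and 26910 to 34610 CPM in control, so markers of the labelled melanoma cells were high in all 9 libraries. Of 10 fibroblast markers, all 10 had positive log2 fold changes with either hairpin, with medians of 2.25 (hairpin 1) and 1.68 (hairpin 2). Their sums were 3539, 280.0 and 835 CPM in the hairpin 1 libraries, 318, 522 and 1534 CPM with hairpin 2, and 241, 466 and 198 CPM in control. All 9 endothelial markers also had positive values, with sums of 202 to 299 CPM (hairpin 1), 185 to 346 CPM (hairpin 2) and 178 to 203 CPM (control). Pan-leukocyte markers summed to 81.4 to 243 CPM in the hairpin 1 libraries, 27.1 to 219 CPM with hairpin 2 and 70.8 to 204 CPM in control. The erythroid sums were 1032 to 1488 CPM in the hairpin 1 libraries, 421 to 21450 CPM with hairpin 2 and 2538 to 4963 CPM in control. The keratinocyte markers Krt5, Krt14, Krt1 and Krt15 were at 0 in all 9 libraries. Krt10, also on that list, was at 0 in 7 libraries, and the keratinocyte sum was at most 0.243 CPM.

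The 2 libraries with the highest fibroblast sums, hairpin 1 replicate 1 and hairpin 2 replicate 3, also had the 2 lowest replication levels, 5.97 and 5.94. Hairpin 1 replicate 2 and hairpin 2 replicate 1 had fibroblast sums inside the control range. Their replication levels of 6.11 and 6.17 were still below the 3 control values, which for hairpin 2 replicate 1 depends on the scaling. What part the host cells have in the replication gene levels was not tested.

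**Figure D2:**
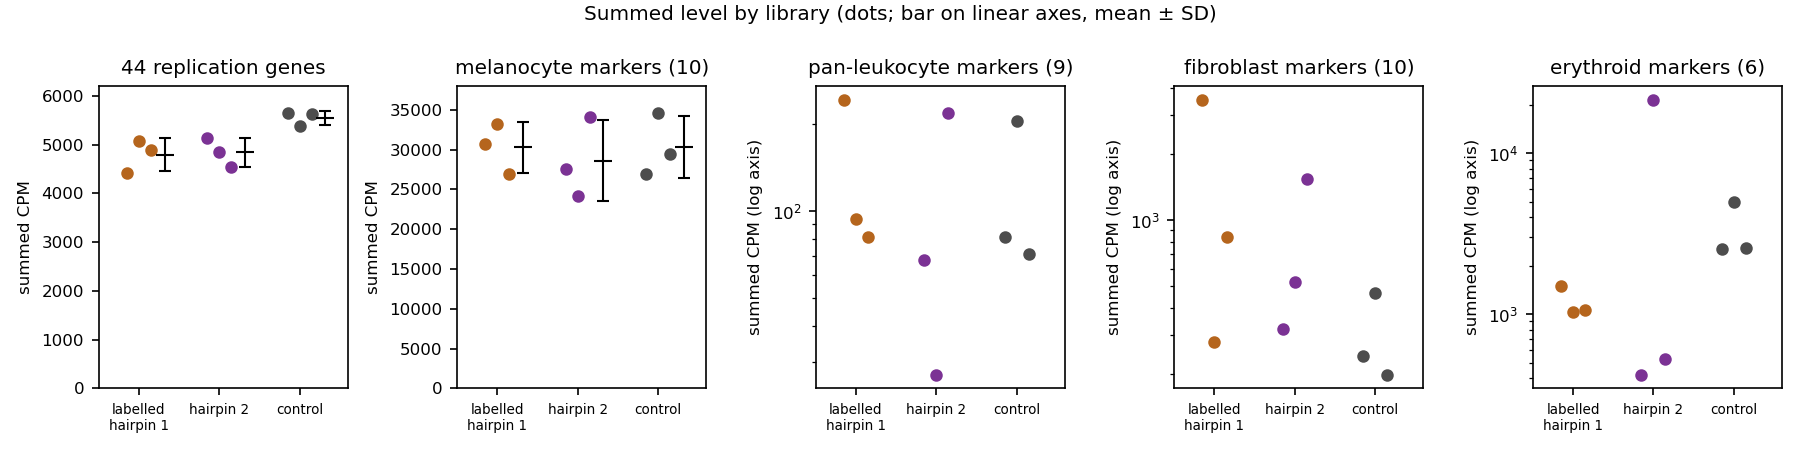
Summed CPM per library (dots) of the 44 replication genes and of melanocyte, pan-leukocyte, fibroblast and erythroid markers in the libraries labelled hairpin 1, with hairpin 2 and in control; the first 2 panels have linear axes with mean ± SD bars, the other 3 log axes. Fibroblast sums reach 3539 CPM in a hairpin 1 library against at most 466 CPM in control.

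In the libraries labelled hairpin 1, compared with control, 42 of the 44 replication genes had a negative log2 fold change, against 47.4% of all tested genes. The median was -0.19, beside 0.01 over all tested genes. At an unadjusted p under 0.05, 12 members were lower and 0 higher, where 1.32% of tested genes were lower and 1.85% higher. The 12 were 5 of the 6 MCM2-7 genes, 4 of the 5 deoxynucleotide genes, Cdc6, Mcm10 and Fen1. In 20 members every hairpin 1 library was below every control library, which held for 4.3% of tested genes, and in 0 members was every one above (4.09%). Without control replicate 3 the count lower at p under 0.05 was 4, where 0.465% of tested genes were lower. It was 5 without hairpin 1 replicate 1 (1.87% of tested genes) and 7 without hairpin 1 replicate 3 (1.7%). The median stayed between -0.23 and -0.18 over the libraries left out. The lowest adjusted p of any member was 0.9999, and DESeq2 also called 0 members.

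With hairpin 2, 38 of the 44 had a negative log2 fold change relative to control, against 48.5% of tested genes, and the median was -0.20, beside 0.01 over all tested genes. At an unadjusted p under 0.05, 12 members were lower and 0 higher, where 6.27% of tested genes were lower and 8.14% higher. This 12 held 3 MCM2-7 genes and Tk1, Rrm2, Cdc6, Mcm10, Pola2, Pold2, Rfc3, Rpa2 and Ccne1. In 15 members every hairpin 2 library was below every control library, against 10.2% of tested genes, and in 0 members above (10.6%). Without hairpin 2 replicate 3, 7 members were lower at p under 0.05, where 7.91% of tested genes were lower, and 1 was higher. In that fit 2442 of 14534 genes were past this p in either direction. The lowest adjusted p was 0.241 in edgeR. DESeq2, the alternative test, called 5 members lower, Rfc3, Tk1, Ccne1, Pold2 and Mcm5, and 1.03% of all tested genes lower. Without hairpin 2 replicate 3 the median was -0.16, and over all libraries left out in turn it stayed between -0.27 and -0.16.

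For the mean of both hairpins against control, 41 members had a negative value (47.8% of tested genes), with a median of -0.20. Lower at an unadjusted p under 0.05 were 17 members (3.36% of tested genes), and 0 were higher (3.92%). In the fit without hairpin 2 replicate 3, 11 members were lower (3.71% of tested genes). In 12 members all 6 hairpin libraries were below all 3 control libraries, which held for 1.61% of tested genes, and in 0 members above (1.36%). DESeq2 called 0 members for the mean (0.0211% of tested genes lower). The 12 were Cdc6, Mcm3, Mcm5, Mcm7, Mcm10, Pola2, Rfc3, Rpa2, Rrm2, Tk1, Dut and Ccne1. These orders are of TMM-scaled CPM. Hairpin 2 replicate 1 had a scaling factor of 1.041, and its values for Mcm3, Pola2 and Dut lay close below the lowest control. Here and for hairpin 2 alone, the order for these genes depends on the scaling. Both hairpins were set against the same 3 control libraries, so these comparisons are not independent of each other.

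**Figure D3:**
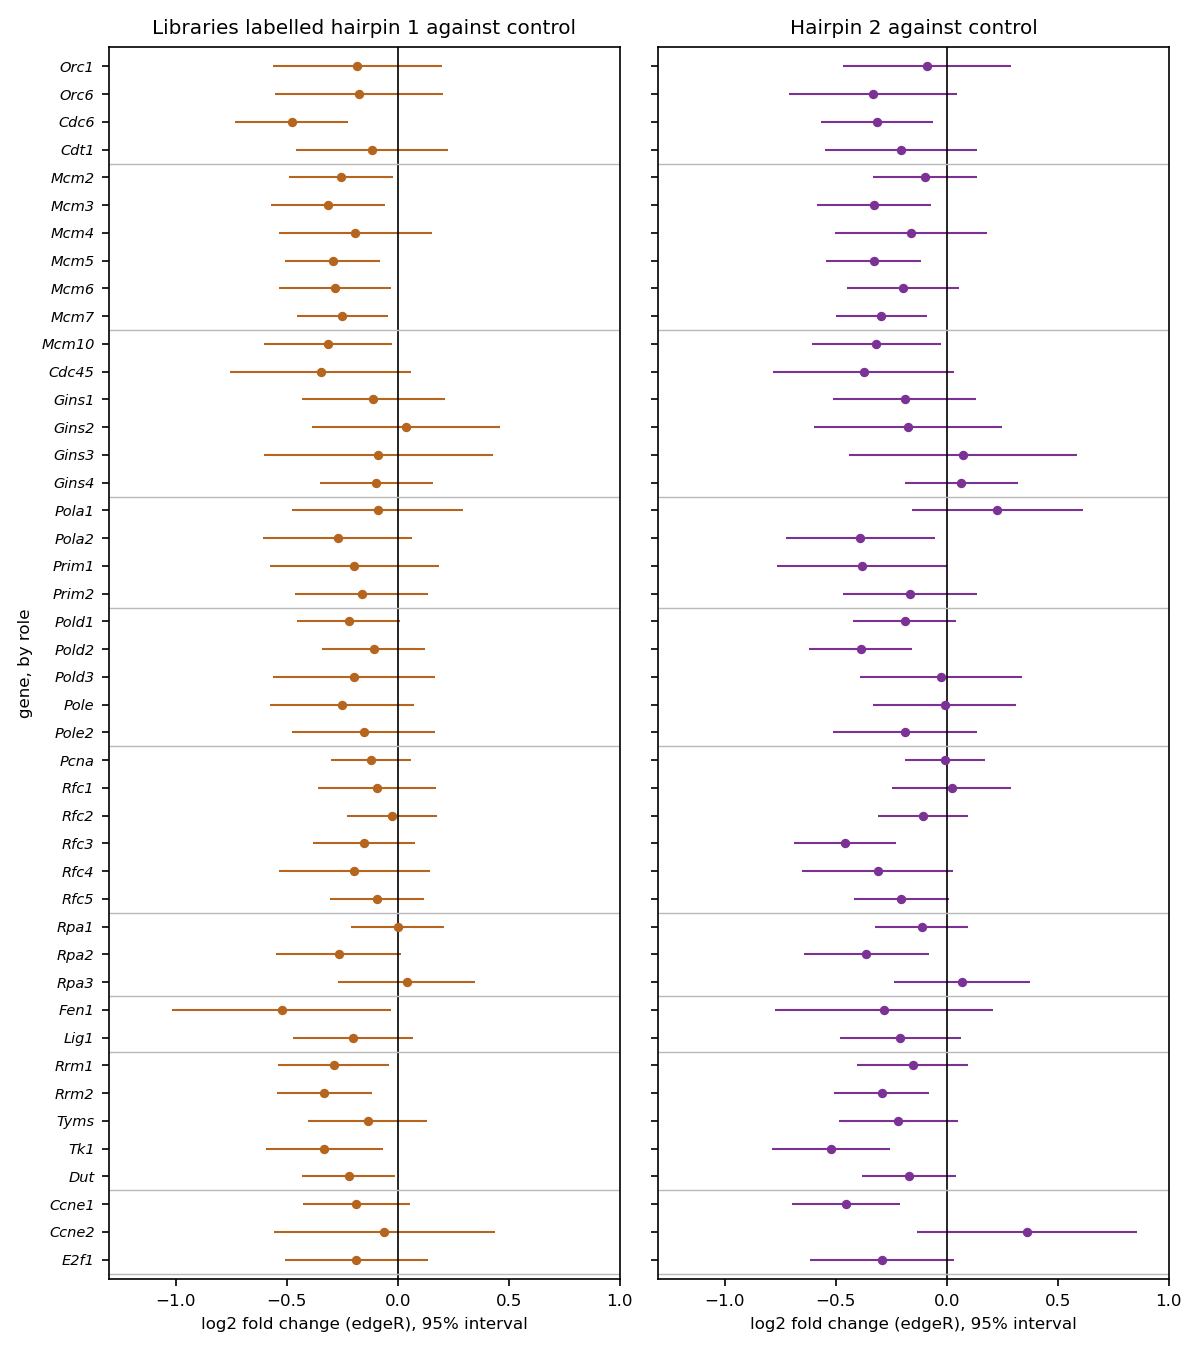
Log2 fold change of each of the 44 replication genes (rows) in the libraries labelled hairpin 1 and with hairpin 2 against control, with the 95% interval of the edgeR fit as bars. Of the 44, 42 values are negative for hairpin 1 and 38 for hairpin 2, and most intervals reach 0.

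Among the genes of origin licensing, Cdc6, the loader of the MCM2-7 ring (GRCm38 chromosome 11, 98907801 to 98923940, plus strand), had the smallest unadjusted p of all members for hairpin 1. It had 37.7, 35.4 and 43.1 CPM in the libraries labelled hairpin 1, 41.2, 47.7 and 41.4 CPM with hairpin 2, and 55.5, 51.7 and 54.7 CPM in control. All 6 hairpin libraries were below the control libraries, and the highest hairpin value was 47.7 CPM against a lowest control value of 51.7 CPM. The log2 fold change was -0.48 (SE 0.11) for hairpin 1 and -0.31 (SE 0.11, adjusted p = 0.274) for hairpin 2. Cdt1, its partner in loading, and Orc1 and Orc6, subunits of the origin recognition complex, had log2 fold changes of -0.11 to -0.18 for hairpin 1 and -0.09 to -0.33 for hairpin 2, and their groups overlapped.

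The 6 MCM2-7 genes, which encode the subunits of the helicase ring, were all on the negative side with either hairpin. Their medians were -0.27 for hairpin 1 and -0.25 for hairpin 2. Mcm5 (GRCm38 chromosome 8, 75109569 to 75128439, plus strand) had 224, 274 and 254 CPM in the libraries labelled hairpin 1, 245, 250.0 and 238 CPM with hairpin 2, and 315, 292 and 314 CPM in control. Neither hairpin group overlapped control, while they overlapped each other, and the log2 fold changes were -0.29 (SE 0.10) for hairpin 1 and -0.33 (SE 0.10, adjusted p = 0.241) for hairpin 2. DESeq2 gave it an adjusted p of 0.0424 for hairpin 2. Mcm3 had 218, 240.3 and 245 CPM in the libraries labelled hairpin 1, 272, 217 and 208 CPM with hairpin 2, and 289.8, 276 and 309 CPM in control. Every hairpin library lay under the lowest control value of 276 CPM, and the log2 fold changes were -0.31 (SE 0.12) for hairpin 1 and -0.33 (SE 0.12, adjusted p = 0.27) for hairpin 2. Mcm7 had 185, 209.7 and 178 CPM in the libraries labelled hairpin 1, 188, 190.5 and 177 CPM with hairpin 2, and 229, 224 and 228 CPM in control. Its 3 control values lie close together and all 6 hairpin values are below them, at log2 fold changes of -0.25 (SE 0.09) for hairpin 1 and -0.29 (SE 0.09, adjusted p = 0.253) for hairpin 2. Exons of Mcm7 overlap Ap4m1, Cops6, Mir25 and Mir93, whose reads could not be told apart from its own where they share bases.

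Mcm2, the member with the highest CPM, had 455, 553 and 558 CPM in the libraries labelled hairpin 1, 556, 637 and 554 CPM with hairpin 2, and 645, 623 and 601 CPM in control. The hairpin 1 libraries were all below control at -0.26 (SE 0.11), while with hairpin 2 a library was above a control and the log2 fold change was -0.10 (SE 0.11, adjusted p = 0.703). Mcm6 had 261, 338 and 306 CPM in the libraries labelled hairpin 1, 349, 313 and 297 CPM with hairpin 2, and 389, 347 and 363 CPM in control. Its pattern was like that of Mcm2, at -0.28 (SE 0.11) with no overlap for hairpin 1 and at -0.20 (SE 0.11, adjusted p = 0.446) with overlap for hairpin 2. Mcm4 overlapped in both comparisons, at -0.19 for hairpin 1 and -0.16 for hairpin 2. Per kilobase of transcript the control means were 178 CPM for Mcm2, 90.8 for Mcm5, 85.0 for Mcm3, 84.1 for Mcm6, 76.7 for Mcm7 and 40.9 for Mcm4, although the proteins form a ring with 1 copy of each.

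**Figure D4:**
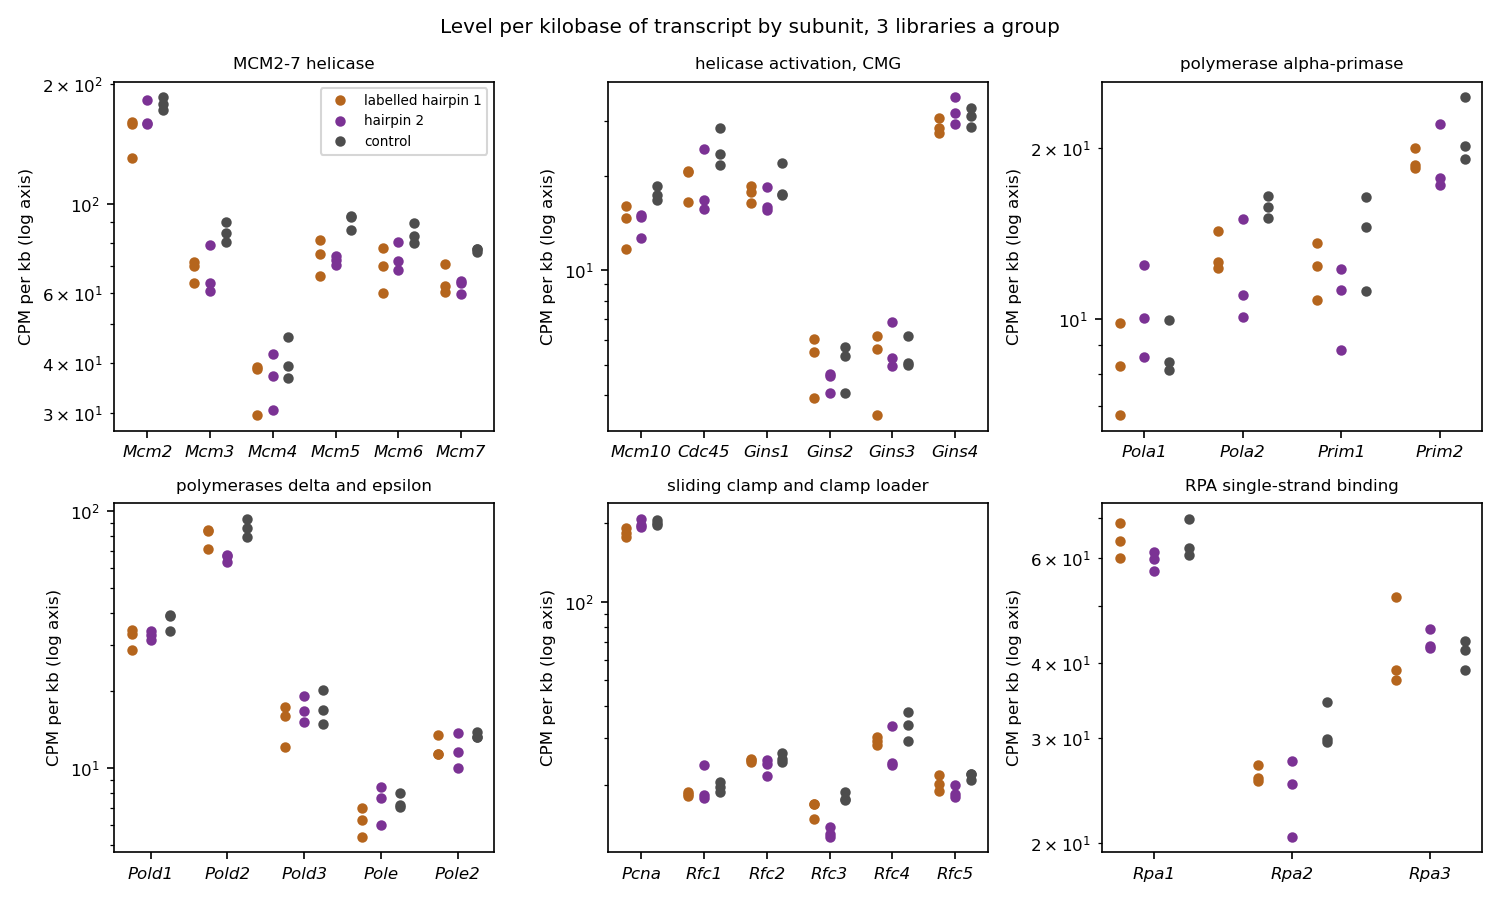
Level of each replication gene as CPM per kilobase of its longest transcript (log axis) in the libraries labelled hairpin 1, with hairpin 2 and in control; each dot is a library, and the panels hold the genes of 6 of the roles. Among the MCM2-7 genes the control means run from 40.9 (Mcm4) to 178 (Mcm2), and Pcna has the highest mean of all, 200.2.

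Of the genes that turn the ring into an active helicase, Mcm10, which acts when the helicase is switched on, had 57.0, 71.4 and 78.2 CPM in the libraries labelled hairpin 1, 72.8, 71.7 and 61.5 CPM with hairpin 2, and 81.7, 84.6 and 90.3 CPM in control. All hairpin libraries were below control, at -0.31 (SE 0.13) for hairpin 1 and -0.32 (SE 0.13, adjusted p = 0.313) for hairpin 2. Cdc45, a part of the active helicase, had 35.2, 44.1 and 44.5 CPM in the libraries labelled hairpin 1, 52.0, 35.9 and 33.5 CPM with hairpin 2, and 60.9, 50.1 and 46.4 CPM in control. Its hairpin 1 libraries lay below control and its hairpin 2 libraries overlapped it, and the log2 fold change for the mean of both hairpins was -0.36 (SE 0.16, adjusted p = 0.677). Exons of Cdc45 overlap Ufd1, so its counts carry the same uncertainty as those of Mcm7. The 4 GINS genes had log2 fold changes of -0.11 to 0.04 for hairpin 1 and -0.19 to 0.07 for hairpin 2 and overlapping groups in each. Gins3 and Gins4 were above 0 with hairpin 2 (0.07 each), and Gins2 was above 0 for hairpin 1.

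In the polymerase alpha-primase complex, which lays the first stretch of each new strand, Pola2, the accessory subunit, had 41.0, 35.3 and 36.3 CPM in the libraries labelled hairpin 1, 43.1, 29.0 and 31.7 CPM with hairpin 2, and 47.3, 45.2 and 43.4 CPM in control. The hairpin groups overlapped each other but not control, and the log2 fold changes were -0.27 (SE 0.15) for hairpin 1 and -0.39 (SE 0.15, adjusted p = 0.291) for hairpin 2. Pola1, the catalytic subunit of the same enzyme, had 36.1, 52.6 and 44.1 CPM in the libraries labelled hairpin 1, 66.5, 53.6 and 45.7 CPM with hairpin 2, and 43.5, 53.3 and 44.8 CPM in control. Its groups overlapped, and the log2 fold changes were -0.09 for hairpin 1 and 0.23 for hairpin 2. Prim1 and Prim2, the primase subunits, were at -0.19 and -0.16 for hairpin 1 and at -0.38 and -0.17 for hairpin 2, with overlap.

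Pold2, the accessory subunit of polymerase delta (GRCm38 chromosome 11, 5872180 to 5878292, minus strand), had 118, 139 and 138 CPM in the libraries labelled hairpin 1, 110.1, 111 and 104 CPM with hairpin 2, and 142, 130.2 and 154 CPM in control. Every hairpin 2 library was below every library of the other groups. Relative to control the log2 fold change was -0.11 (SE 0.10) for hairpin 1 and -0.39 (SE 0.10, adjusted p = 0.241) for hairpin 2. DESeq2 gave it an adjusted p of 0.0349 for hairpin 2. The direct comparison of hairpin 2 with hairpin 1 gave -0.28 (SE 0.10, adjusted p = 0.388). Pold1, the catalytic subunit, had 101, 121 and 117 CPM in the libraries labelled hairpin 1, 115, 119.8 and 110.2 CPM with hairpin 2, and 138, 137 and 119.5 CPM in control. A hairpin 1 library and a hairpin 2 library lay just above the lowest control, and the mean of both hairpins was at -0.21 (SE 0.09, adjusted p = 0.677). Pold3, Pole and Pole2 were at -0.25 to -0.15 for hairpin 1 and at -0.19 to -0.01 for hairpin 2.

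Rfc3, a subunit of the loader that places the clamp on DNA (GRCm38 chromosome 5, 151642756 to 151651242, minus strand), had the smallest p of all members with hairpin 2. It had 45.8, 46.0 and 40.2 CPM in the libraries labelled hairpin 1, 37.4, 34.5 and 35.1 CPM with hairpin 2, and 47.5, 48.2 and 51.2 CPM in control. The hairpin 2 values were lowest, the hairpin 1 values lay between, and the control values were highest, with no overlap. The log2 fold change was -0.15 (SE 0.10) for hairpin 1 and -0.46 (SE 0.10, adjusted p = 0.241) for hairpin 2, where DESeq2 gave an adjusted p of 0.0115. Pcna, the sliding clamp, had 268, 291 and 279 CPM in the libraries labelled hairpin 1, 315, 298 and 294 CPM with hairpin 2, and 303, 298 and 310.4 CPM in control. It was the steadiest of the 44 genes within groups. Its hairpin 1 libraries were all below control, at -0.12 with a 95% interval of -0.30 to 0.06. With hairpin 2 Pcna overlapped control and was close to level, at -0.01 with a 95% interval of -0.19 to 0.17. The other loader genes, Rfc1, Rfc2, Rfc4 and Rfc5, were at -0.20 to -0.03 for hairpin 1 and -0.31 to 0.02 for hairpin 2.

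Among the 3 genes of RPA, the complex that coats single-stranded DNA, Rpa2 had 46.6, 46.1 and 48.9 CPM in the libraries labelled hairpin 1, 49.8, 45.6 and 37.2 CPM with hairpin 2, and 53.6, 62.5 and 54.3 CPM in control. Both hairpin groups lay below control and overlapped each other, at -0.27 (SE 0.13) for hairpin 1 and -0.36 (SE 0.13, adjusted p = 0.27) for hairpin 2. Rpa1 and Rpa3, the other subunits, were at -0.00078 and 0.04 for hairpin 1 and at -0.11 and 0.07 for hairpin 2. Fen1, the flap nuclease that trims Okazaki fragments, was the lowest member by level, with 4.08, 5.17 and 4.86 CPM in the libraries labelled hairpin 1, 5.52, 5.30 and 5.84 CPM with hairpin 2, and 5.78, 6.40 and 8.08 CPM in control. Its hairpin 1 libraries were all below control, at -0.52 (SE 0.22), and its hairpin 2 libraries overlapped it, at -0.28 (SE 0.22, adjusted p = 0.581). Exons of Fen1 overlap Gm10143 and Tmem258, so its counts are uncertain. Lig1, the ligase that joins the fragments, was at -0.20 for hairpin 1 and -0.21 for hairpin 2.

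The genes that supply deoxynucleotides were all on the negative side with both hairpins. Tk1, thymidine kinase of the salvage route (GRCm38 chromosome 11, 117815526 to 117826092, minus strand), had 132, 146 and 147 CPM in the libraries labelled hairpin 1, 141, 114 and 118 CPM with hairpin 2, and 160.3, 174 and 201 CPM in control. All 6 hairpin libraries were below the control libraries, at -0.33 (SE 0.12) for hairpin 1 and -0.52 (SE 0.12, adjusted p = 0.241) for hairpin 2, with a DESeq2 adjusted p of 0.0116 for hairpin 2. Rrm2, the small subunit of ribonucleotide reductase, had 226, 228 and 226 CPM in the libraries labelled hairpin 1, 249, 218 and 232 CPM with hairpin 2, and 259.9, 285 and 311 CPM in control. Hairpin values overlapped between the 2 hairpins but not with control, and the log2 fold changes were -0.33 (SE 0.10) for hairpin 1 and -0.29 (SE 0.10, adjusted p = 0.261) for hairpin 2. Rrm1, the large subunit, had 279, 368 and 326 CPM in the libraries labelled hairpin 1, 386, 346 and 337 CPM with hairpin 2, and 409.5, 379 and 400.5 CPM in control. Only its hairpin 1 libraries were all below control, at -0.29 (SE 0.11) beside -0.15 (SE 0.11, adjusted p = 0.553) for hairpin 2. Dut, which removes dUTP, had 106, 109.8 and 106 CPM in the libraries labelled hairpin 1, 122, 111 and 101 CPM with hairpin 2, and 128, 122 and 125 CPM in control. Its highest hairpin value was 121.6 CPM and its lowest control value 121.7 CPM, at -0.22 (SE 0.10) for hairpin 1 and -0.17 (SE 0.10, adjusted p = 0.43) for hairpin 2. Tyms, thymidylate synthase, overlapped in both comparisons, at -0.14 for hairpin 1 and -0.22 for hairpin 2. An exon of Afmid overlaps Tk1, so its counts carry the same uncertainty as those of Fen1.

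Of the genes that control entry into S phase, Ccne1, a cyclin that activates CDK2 (GRCm38 chromosome 7, 38097984 to 38107534, minus strand), had 43.9, 48.6 and 45.8 CPM in the libraries labelled hairpin 1, 42.0, 34.2 and 38.6 CPM with hairpin 2, and 52.4, 51.0 and 54.0 CPM in control. As for Rfc3, the hairpin 2 values were lowest and the control values highest, with no overlap. The log2 fold change was -0.19 (SE 0.11) for hairpin 1 and -0.45 (SE 0.11, adjusted p = 0.241) for hairpin 2, where DESeq2 gave an adjusted p of 0.0174. Its paralog Ccne2 had 11.7, 10.8 and 10.4 CPM in the libraries labelled hairpin 1, 17.1, 17.3 and 9.74 CPM with hairpin 2, and 10.2, 12.7 and 11.3 CPM in control. With hairpin 2 it was high in 2 of 3 libraries, at 0.36 (SE 0.22, adjusted p = 0.474), the largest positive value of any member, and it was level for hairpin 1 (-0.06). The Ccne1 to Ccne2 ratio per kilobase was 5.64, 6.79 and 6.61 in the hairpin 1 libraries, 3.70, 2.97 and 5.97 with hairpin 2, and 7.68, 6.02 and 7.18 in control. The 2 lowest ratios were those of hairpin 2 replicates 1 and 2. Exons of Ccne2 overlap Ints8, so its counts and this ratio are uncertain. E2f1, the transcription factor, had 99.9, 93.2 and 78.5 CPM in the libraries labelled hairpin 1, 87.1, 94.2 and 71.2 CPM with hairpin 2, and 87.5, 110.3 and 111 CPM in control, with log2 fold changes of -0.19 (SE 0.15) for hairpin 1 and -0.29 (SE 0.15, adjusted p = 0.384) for hairpin 2 and overlapping groups.

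Set directly against hairpin 1, hairpin 2 had replication genes on both sides of 0. There, 25 of 44 log2 fold changes were negative (49.8% of tested genes), with a median of -0.01 beside 0.00. At an unadjusted p under 0.05, 3 members were lower (5.23% of tested genes), Rfc3, Pold2 and Ccne1, at -0.30, -0.28 and -0.27, and 0 were higher (6.42%). Each of these 3 had all hairpin 2 libraries below all hairpin 1 libraries, where 7.67% of tested genes did, and 2 members had all of them above (8.31%). DESeq2 called 0 members here (0.352% of tested genes lower). The lowest adjusted p of a member was 0.376. Without hairpin 2 replicate 3, 1 member was lower (8.72% of tested genes) and 3 were higher, with 18 of 44 values negative. In that fit 2432 of 14534 genes were past an unadjusted p of 0.05 in either direction. Without hairpin 1 replicate 2, 1 was lower (5.0% of tested genes) and 1 higher, where 1475 of 14632 genes were past this p. Without hairpin 1 replicate 3, 1 was lower (6.27%) and 0 higher. Without hairpin 2 replicate 1, 5 were lower (3.94%) and 0 higher. Over all tested genes, longer transcripts tended to have higher signed log2 fold changes with hairpin 2 (Spearman rho across genes of 0.37 against control and 0.42 against hairpin 1, beside -0.02 for hairpin 1 against control). Over the 44 members these rho values were 0.21, 0.25 and -0.07.

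**Figure D5:**
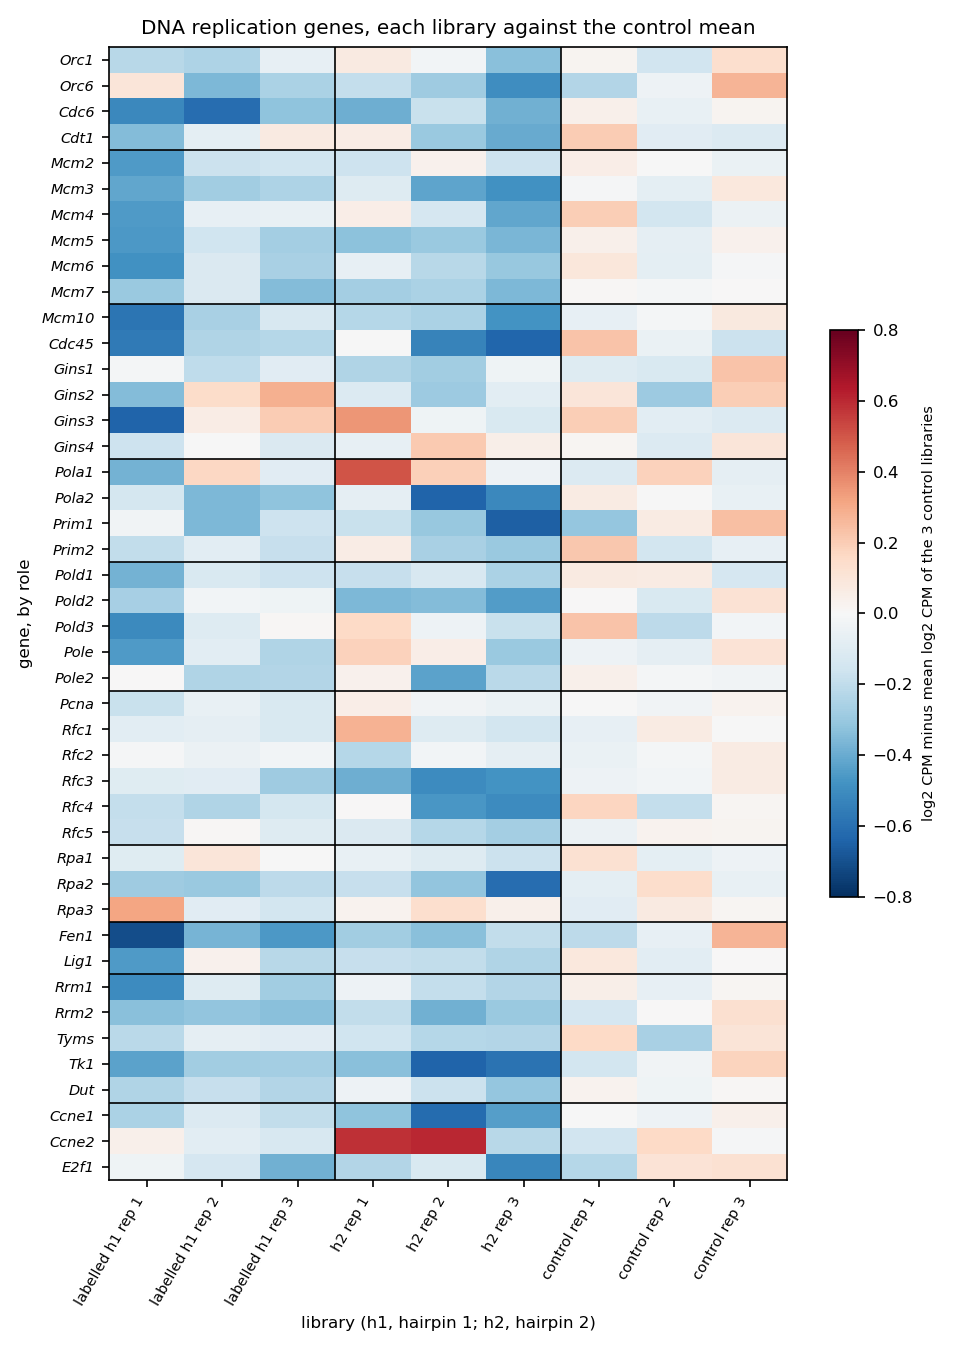
Log2 CPM of the 44 replication genes (rows, by role) in each of the 9 libraries (columns, labelled hairpin 1, hairpin 2, control), as the difference from the mean of the control libraries; blue is lower and red higher. Hairpin 1 replicate 1 and hairpin 2 replicate 3, with mean levels of 5.97 and 5.94, have the lowest means, and Ccne2 is highest in hairpin 2 replicates 1 and 2.

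Across the 9 libraries the members moved together to differing degrees, and no other gene set was measured in this way. Pearson's r of each member with the mean of the other 43 had a median of 0.695, which describes genes that share library, depth and group and carries no test. It was highest for Mcm3 (0.98) and was above 0.7 for 20 members. It was below 0.3 for 6 members and lowest for Rpa3 (-0.459). Within groups the coefficient of variation of CPM had a median of 9.11% over the members and ran from 3.27% (Pcna) to 19.5% (Gins3).

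The 21 members with E2F-type letters in a window and the 15 without are set side by side as a description, with no test. The median log2 fold change was -0.20 with the letters and -0.19 without them for hairpin 1, and -0.21 and -0.29 for hairpin 2. Lower at an unadjusted p under 0.05 for hairpin 1 were 7 of the 21 and 5 of the 15 (1.32% of all tested genes). For hairpin 2 they were 6 of the 21 and 6 of the 15 (6.27% of all tested genes). No match says only that these letters are not in this window.

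Of 40 other replication genes, such as checkpoint, fork protection and topoisomerase genes, 7 were lower (17.5%, against 1.32% of all tested genes) and 0 higher (1.85% of all tested) at an unadjusted p under 0.05 for hairpin 1. For hairpin 2, 6 were lower (15%, against 6.27%) and 1 higher (2.5%, against 8.14%). None passed the edgeR adjusted p, and DESeq2 called 0 for hairpin 1 and only Chtf18 for hairpin 2. The median log2 fold change was -0.17 for hairpin 1 and -0.07 for hairpin 2. Chtf18, a subunit of an alternative clamp loader, had 30.4, 32.4 and 34.7 CPM in the libraries labelled hairpin 1, 28.1, 29.0 and 31.6 CPM with hairpin 2, and 39.4, 43.8 and 47.1 CPM in control. No hairpin library reached the lowest control, and the log2 fold changes were -0.42 (SE 0.11) for hairpin 1 and -0.56 (SE 0.11, adjusted p = 0.241) for hairpin 2, with a DESeq2 adjusted p of 0.00667 for hairpin 2. Clspn and Timeless, which act at the moving fork, were at -0.53 and -0.28 for hairpin 1 and at -0.58 and -0.31 for hairpin 2. Wdhd1, a fork scaffold, was at -0.38 (SE 0.11) for hairpin 1 and -0.12 (SE 0.11, adjusted p = 0.644) for hairpin 2, and Dna2, a nuclease, at -0.42 (SE 0.15) for hairpin 1 and -0.28 (SE 0.15, adjusted p = 0.405) for hairpin 2. Between hairpins, 4 of the 40 were higher with hairpin 2 (10%, against 6.42% of all tested genes) and 0 lower (5.23% of all tested), among them Top2a at 0.42 (SE 0.12, adjusted p = 0.375), Top1 at 0.43 (SE 0.16, adjusted p = 0.389) and Atad5 at 0.48 (SE 0.19, adjusted p = 0.402). For hairpin 1 the count of lower genes was 2 without control replicate 3, where 0.465% of all tested genes were lower. It was 3 without hairpin 1 replicate 2 (1.33%) and 4 without control replicate 2 (1.14%). For hairpin 2 it was 1 without control replicate 3 (3.31%) and 2 without hairpin 2 replicate 3 (7.91%). Over the libraries left out, 0 to 4 were higher for hairpin 2. In those fits 1113 to 2442 of all tested genes were past an unadjusted p of 0.05 in either direction. Between hairpins the count of higher genes was 1 without hairpin 1 replicate 1, hairpin 2 replicate 1 or hairpin 2 replicate 2. In those fits 738 to 1285 of all tested genes were past an unadjusted p of 0.05 in either direction. The count was 2 without hairpin 1 replicate 2 (1475 of all tested genes past this p), 8 without hairpin 1 replicate 3 (2014) and 10 without hairpin 2 replicate 3 (2432). It was 0 with length and GC trends removed (752) or without both libraries that stood apart (537).

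Among 26 other E2F and G1/S control genes, of which 24 were tested, 4 were lower (16.7% of those tested, against 1.32% of all tested genes) and 0 higher (1.85% of all tested) at an unadjusted p under 0.05 for hairpin 1. For hairpin 2, 4 were lower (16.7%, against 6.27%) and 3 higher (12.5%, against 8.14%). None passed the adjusted p of edgeR or DESeq2 for either hairpin. Ccna2, the cyclin of S phase, had 150.5, 151 and 149.8 CPM in the libraries labelled hairpin 1, 164, 164 and 153 CPM with hairpin 2, and 180.5, 184 and 208 CPM in control. It was below control in all 6 hairpin libraries, at -0.34 (SE 0.09) for hairpin 1 and -0.25 (SE 0.09, adjusted p = 0.27) for hairpin 2. Ccnd1, a cyclin of G1, was at -0.36 (SE 0.12) for hairpin 1 and -0.34 (SE 0.12, adjusted p = 0.27) for hairpin 2, and E2f8, a repressor of the E2F family, at -0.52 (SE 0.18) for hairpin 1 and -0.06 (SE 0.18, adjusted p = 0.905) for hairpin 2. For hairpin 2 relative to hairpin 1, 1 of the 24 was lower (4.17%, against 5.23% of all tested genes) and 4 were higher (16.7%, against 6.42%). Cdk4, the kinase partner of the D cyclins, was at -0.41 (SE 0.14, adjusted p = 0.375) in this comparison. Ccnd2, another D cyclin, was at 0.33 (SE 0.09, adjusted p = 0.375) and Tfdp2, a partner of E2F factors, at 0.83 (SE 0.20, adjusted p = 0.375), with a DESeq2 adjusted p of 0.039 for Tfdp2. Without control replicate 3, 2 genes were lower for hairpin 1 (0.465% of all tested genes) and 2 for hairpin 2 (3.31%). For hairpin 2, 1 gene was lower without hairpin 2 replicate 2 (3.67%) or 3 (7.91%). Beside the counts of higher genes, brackets give all tested genes past an unadjusted p of 0.05 in either direction. For hairpin 2, 1 was higher without control replicate 2 (1330) or hairpin 2 replicate 2 (1113). With length and GC trends removed 0 were higher for hairpin 2 (1370). Between hairpins, 0 were lower (3.16% of all tested genes) and 2 higher (752) with these trends removed. Without both libraries that stood apart 1 was higher (537). Leaving out 1 library, 0 to 2 were lower (2.57% to 8.72% of all tested genes) and 2 to 5 higher (738 to 2432) between hairpins.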

How the data were processed

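Per the labels' protocols, TRIzol was used to extract RNA and a NovaSeq instrument to sequence it. The authors deposited raw gene counts, 1 file for each of 9 libraries. STAR 2.7.0d and Cufflinks stand in the submitters' processing notes, with GRCh38 and hg38 as builds, which are human while the symbols are of mouse. Not given in the sources used here are the read counter, its annotation and whether it used strand, so overlapping genes on either strand cannot be told apart. In GENCODE M21, 15 members share exon bases with another gene. Of the named genes of the other lists, so do Chtf18, Timeless, Wdhd1, Top2a, Ccna2, Ccnd1, E2f8, Cdk4 and Ccnd2. Their counts carry the same uncertainty. Pseudogene copies held 261 counts (Pcna-ps2) beside 43026 for Pcna, and 1 beside 10946 for Tyms.

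Sample titles gave the groups, because genotype labels of hairpin samples are numbered upwards from FBXO38. The quasi-likelihood test of edgeR 4.0.16 (R 4.3.3) was run on the counts in 4 comparisons, with TMM scaling, a robust fit over the 9 libraries together and filterByExpr (minimum count 10, minimum total 15). Benjamini-Hochberg adjustment ran over 14193 genes, with a threshold of 0.05. CPM uses TMM-scaled library sizes, and log2 CPM a prior count of 2. Transcript length and coordinates came from GENCODE M21 (GRCm38), by symbol. Counting precision follows from totals of 15322163 to 17342554 per library.

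The members and lists were chosen with earlier results of these data known. Values per library are given for members with an unadjusted p under 0.05 in any comparison (19 genes) and for Mcm2, Pcna, Rrm2, Ccne1 and E2f1. From each other list, up to 3 genes of smallest p per comparison are named. Pola1 and Ccne2 were added after their values were seen. Alternatives were DESeq2 1.42.0, limma-voom (limma 3.58.1), other scalings and filters, fits without the group not compared, a replicate block, removal of length and GC trends, and leaving out libraries. No library was left out of the values given first.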

Additional observations from a re-analysis of the deposited data

How the results depend on the processing

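Under every alternative run, edgeR and limma-voom gave 0 members past the adjusted p, and the median log2 fold change of the members stayed negative in each hairpin against control. DESeq2 called 5 members for hairpin 2 against control. The count of members lower at an unadjusted p under 0.05 moved with the setting. The share of all tested genes lower in the same fits stands in brackets. For hairpin 1 (12 as reported) it was 6 with a replicate block (0.81%), and 7 with length and GC trends removed as well (1.26%). It was 6 without both libraries that stood apart (1.94%), and 4 to 13 leaving out 1 library at a time (0.465% to 1.87%). For hairpin 2 (12) it was 7 to 17 leaving out 1 library (3.31% to 7.91%). For the mean of both hairpins (17) it was 11 with the replicate block and trends removed (3.01%). Leaving out 1 library, it was 11 to 18 for the mean (1.16% to 5.24%). For hairpin 2 against hairpin 1 (3) it was 1 without both libraries that stood apart (1.89%). It was 1 to 5 there leaving out 1 library (2.57% to 8.72%). Without hairpin 2 replicate 3, 3 were higher, where 2432 of 14534 genes were past this p in either direction. Between hairpins the median was -0.05 to 0.04 leaving out 1 library. Replicate numbers did not pair the samples: deviations of same-numbered libraries correlated at -0.409 to 0.138. The replicate block left 11 members lower for hairpin 2 (4.72%), 12 for the mean (2.24%) and 2 between hairpins (3.81%). Of single genes, Fbxo38 for hairpin 1 was at 0.026 without hairpin 1 replicate 2 and 0.005 without hairpin 1 replicate 3, with a range of -0.391 to 0.0259 over libraries left out. Pcna for hairpin 2 was at 0.056 with length and GC trends removed, 0.055 with the replicate block as well, and -0.0403 to 0.0121 leaving out 1 library. The causes were not tested. The counts of the other 2 gene lists under the same settings were added after seeing the data. Low counts limit Fen1, with as few as 69 counts in a library.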
